A study of Rattus with 12 samples.

Results

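Transporters and endocytic receptors of the renal proximal tubule were examined in RNA from medullary thick ascending limbs of 2 rat strains. The genes were taken by name from a list of 37 proximal tubule genes, and 36 of them had a row in the authors' gene table of 42915 rows. Slc17a1, a sodium phosphate and urate carrier, was not found there under that name. Animals of SS/JrHsdMcwi (SS), an inbred Dahl rat whose blood pressure responds to salt, numbered 6. They were set against 6 of SS-Chr 1BN/Mcwi (SS.BN1), which carries the Brown Norway chromosome 1 on an otherwise SS genome. All 12 rats were males aged 7 weeks, kept on a diet with 0.4% NaCl, and the labels name no other treatment. Tubules were picked by hand under a microscope from the digested inner stripe of the outer medulla, and each library came from 1 animal.

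The proximal tubule is the first segment of the nephron and takes back most of the filtered glucose, amino acids, phosphate and protein, while it secretes organic ions and drugs. Its early part, the S1 and S2 segments, lies in the cortex and carries the high-capacity transporters. Its late part, the S3 segment, descends into the outer stripe of the outer medulla, next to the inner stripe from which the limbs were taken, and carries transporters that work on what is left in the lumen. Filtered proteins are taken up by the receptors megalin and cubilin through clathrin-coated pits. The inner stripe itself holds thick limbs, thin limbs and collecting ducts, so the levels below are those of proximal genes in a thick limb preparation.

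The expression values are the authors' FPKM (fragments scaled to transcript length and to library depth), 1 value per strain and gene, so they carry no error between animals, and whether the authors' p-values rest on the spread between animals is not stated. Ratios are SS over SS.BN1, and q is the authors' adjusted p, with a gene called where q was under 0.05. Libraries held 42.3 to 59.8 M reads, and 84.4 to 86.4% of reads mapped. The mapped share averaged 85.85 ± 0.339% (SD, n = 6) in SS and 85.3 ± 0.522% (SD, n = 6) in SS.BN1 (two-sided exact permutation test, p = 0.0649). Reads averaged 52.8 ± 3.69 M in SS and 52.0 ± 5.68 M in SS.BN1 (SD, n = 6 each; same exact permutation test, p = 0.784). Thick limb genes defined the preparation in both strains: Umod (uromodulin) stood at 10174 FPKM in SS and 8492 FPKM in SS.BN1. Slc12a1, which drives salt uptake across the luminal membrane, reached 2571 FPKM in SS and 2406 FPKM in SS.BN1. Of 16 thick limb markers, all tested, 0 were called and 0 had an unadjusted p under 0.05 in the authors' deposited table. Their median log2 ratio was 0.06.

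Proximal transporters and receptors had the higher value in SS for 34 of the 36 genes with a row. The exceptions were Folr1, the folate receptor, which had the higher value in SS.BN1, and Slc34a3, a phosphate carrier listed at 0.0622 FPKM in both strains. Among all tested rows, 50.3% had the higher value in SS. The authors tested 22 of the 36 genes and did not test 14, all of them at or below 1.51 FPKM in either strain. Of the 22 tested, 10 were called in the authors' deposited table, all higher in SS (45.5%). Over all 13253 tested rows, 3.42% were called in either direction and 3.32% were called higher in SS. The SS value was at least 2 times that of SS.BN1 in 14 of the 22, against 4.60% of all tested rows. An unadjusted p under 0.05 was found for 15 of the 22, against 7.55% of all tested rows, by the p-values of the authors' deposited table. Among the 22 the median log2 ratio was 1.14, the quartiles were 0.41 and 1.46, and the median over all tested rows was 0.00. In bulk RNA, fewer cells of a type and less RNA per cell cannot be told apart.

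**Figure D1:**
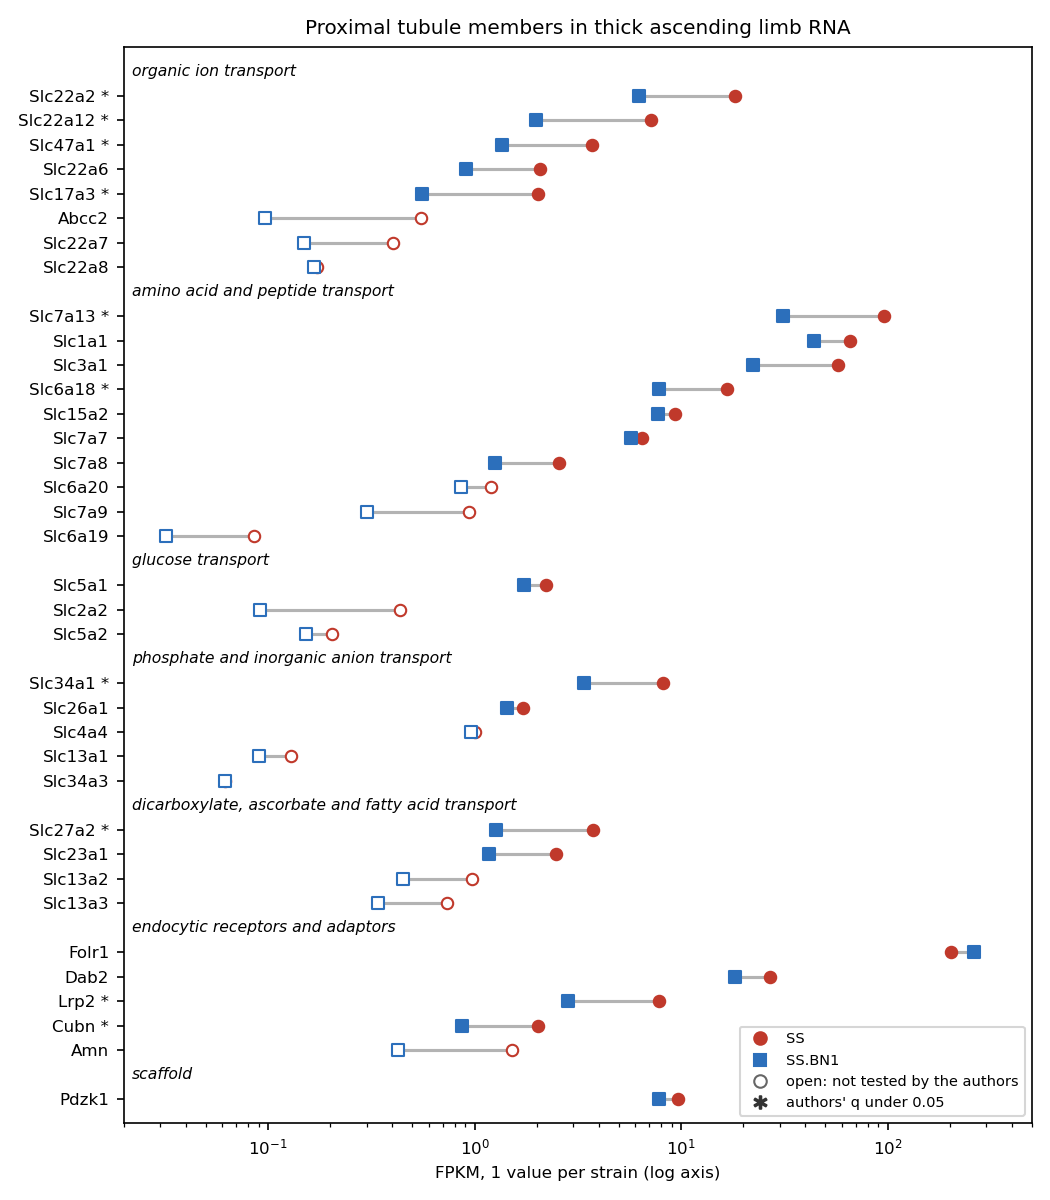
FPKM of the 36 genes on a log axis, 1 circle (SS) and 1 square (SS.BN1) per gene, in groups by role. Stars mark the 10 genes with the authors' q under 0.05, open symbols the 14 genes they did not test; the circle lies to the right of the square except in Folr1 and, where the symbols coincide, Slc34a3.

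Organic ion transporters, which move drugs, toxins and urate across the basolateral and luminal membranes, had 4 calls among 5 tested genes. Slc22a2, the basolateral organic cation transporter, stood at 18.2 FPKM in SS and 6.27 FPKM in SS.BN1, a 2.90-fold difference (q = 0.00266, the authors' deposited table). Its luminal partner in cation secretion is Slc47a1, a proton-coupled exchanger. It had 3.70 FPKM in SS and 1.36 FPKM in SS.BN1, 2.72-fold (q = 0.0221, the authors' deposited table). In this pair, chosen like the other pairs compared below after the values were seen, there was 4.91 times as much Slc22a2 as Slc47a1 in SS and 4.60 times as much in SS.BN1.

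Urate carriers had the 2 largest ratios among the tested genes. Slc22a12, the luminal urate exchanger, had 7.11 FPKM in SS and 1.98 FPKM in SS.BN1, a log2 ratio of 1.84 (q = 0.00266, the authors' deposited table). Slc17a3, a voltage-driven carrier of urate and organic anions, had 2.02 FPKM in SS and 0.558 FPKM in SS.BN1, a log2 ratio of 1.86 (q = 0.00705, the authors' deposited table). Slc17a3 lies near the lower limit of what the authors tested. The 104 tested rows with a mean between 0.80 and 1.34 FPKM had a median log2 ratio of 1.10, so a high ratio is common among tested rows of that level.

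The basolateral organic anion transporters were scarce. Slc22a6, which exchanges anions for dicarboxylates, had 2.08 FPKM in SS and 0.910 FPKM in SS.BN1, without a call (p = 0.0173, q = 0.307, the authors' deposited table). Slc22a8, a neighbour of Slc22a6 on chromosome 1 with a similar task, was not tested, with 0.173 FPKM in SS and 0.167 FPKM in SS.BN1. Slc22a7, an anion transporter of the rat S3 segment, had 0.404 FPKM in SS and 0.150 FPKM in SS.BN1. The luminal conjugate pump Abcc2 had 0.549 FPKM in SS and 0.0964 FPKM in SS.BN1. Neither was tested.

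Amino acid and peptide transporters included the most abundant carriers of the list, and 2 of 7 tested genes were called. Slc7a13, an aspartate, glutamate and cystine exchanger of the S3 segment, reached 96.2 FPKM in SS and 31.1 FPKM in SS.BN1, 3.09-fold (q = 0.00266, the authors' deposited table). That is 3.74% of the Slc12a1 level in SS and 1.29% in SS.BN1. Slc3a1, the heavy chain that carries Slc7a9, and in mice Slc7a13, to the membrane, stood at 57.2 FPKM in SS and 22.2 FPKM in SS.BN1, a 2.57-fold difference. It was not called (p = 0.0235, q = 0.383, the authors' deposited table), although its fold is above that of Slc6a18, which was. The files give Slc3a1 and its neighbour Prepl the same locus entry, and how reads were divided between such rows was not tested. Slc7a9, the cystine exchanger of the early tubule and the other partner of Slc3a1, had 0.942 FPKM in SS and 0.300 FPKM in SS.BN1 and was not tested. Slc7a13 was thus 102 times as abundant as Slc7a9 in SS and 104 times in SS.BN1.

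Slc6a18, a neutral amino acid transporter of the late tubule, stood at 16.8 FPKM in SS and 7.82 FPKM in SS.BN1, 2.14-fold (q = 0.0394, the authors' deposited table). Its neighbour Slc6a19 is the neutral amino acid transporter of the early tubule, with 0.0854 FPKM in SS and 0.0320 FPKM in SS.BN1, untested. Slc6a19 had the lowest value of the 36 genes in SS.BN1, and Slc34a3 alone was lower in SS. Slc1a1, a glutamate transporter, had 65.9 FPKM in SS and 43.8 FPKM in SS.BN1, next to Slc7a13 in SS and above it in SS.BN1. It was not called (log2 ratio 0.59, p = 0.0034, q = 0.0858, the authors' deposited table). Slc15a2, the high-affinity peptide transporter of the late tubule, had 9.39 FPKM in SS and 7.69 FPKM in SS.BN1 (q = 1.00, the authors' deposited table). The basolateral exchangers were not called either. Slc7a8 had 2.57 FPKM in SS and 1.26 FPKM in SS.BN1 (p = 0.0036, q = 0.0899, the authors' deposited table). Slc7a7, which carries cationic amino acids, had 6.48 FPKM in SS and 5.74 FPKM in SS.BN1 (q = 1.00, the authors' deposited table). Slc6a20, a proline transporter, was untested at 1.21 FPKM in SS and 0.861 FPKM in SS.BN1.

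Glucose transporters were low, and the 1 of 3 that was tested was not called. Slc5a1, the high-affinity sodium-glucose cotransporter of the S3 segment, had 2.21 FPKM in SS and 1.73 FPKM in SS.BN1 (p = 0.331, q = 1.00, the authors' deposited table). Slc5a2, the low-affinity cotransporter that takes up most filtered glucose in the S1 segment, had 0.204 FPKM in SS and 0.153 FPKM in SS.BN1. Slc2a2, its basolateral exit path, had 0.437 FPKM in SS and 0.0912 FPKM in SS.BN1. The late cotransporter was thus 10.9 times as abundant as the early one in SS and 11.3 times in SS.BN1. The early pair was not tested.

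Phosphate and inorganic anion carriers had 1 call among 2 tested genes. Slc34a1, the main luminal sodium-phosphate cotransporter, stood at 8.14 FPKM in SS and 3.40 FPKM in SS.BN1, 2.39-fold (q = 0.0208, the authors' deposited table). Slc26a1, a basolateral sulphate exchanger, had 1.72 FPKM in SS and 1.43 FPKM in SS.BN1 (q = 1.00, the authors' deposited table). Slc4a4, the basolateral bicarbonate exit path, had 1.00 FPKM in SS and 0.966 FPKM in SS.BN1, and Slc13a1, a luminal sulphate carrier, had 0.130 FPKM in SS and 0.0901 FPKM in SS.BN1. Neither of these was tested.

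Carriers of dicarboxylates, ascorbate and fatty acids had an SS value at least 2 times that of SS.BN1 in all 4 genes, with 1 call among the 2 tested. Slc27a2, a fatty acid carrier and very-long-chain acyl-CoA synthetase, had 3.75 FPKM in SS and 1.27 FPKM in SS.BN1, 2.96-fold (q = 0.0454, the authors' deposited table). Slc23a1, the luminal ascorbate transporter, had 2.49 FPKM in SS and 1.17 FPKM in SS.BN1. It was not called (p = 0.474, q = 1.00, the authors' deposited table) and shares its locus entry with Paip2. The dicarboxylate carriers were untested: Slc13a2 had 0.976 FPKM in SS and 0.448 FPKM in SS.BN1, and Slc13a3 had 0.733 FPKM in SS and 0.340 FPKM in SS.BN1.

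Of the receptors and adaptors of endocytosis, the protein receptors Lrp2 and Cubn were called higher in SS, and neither the adaptor Dab2 nor the folate receptor was called. Lrp2 (megalin), the large receptor for filtered proteins and vitamin carriers, had 7.86 FPKM in SS and 2.83 FPKM in SS.BN1, 2.77-fold (q = 0.00266, the authors' deposited table). Cubn (cubilin), the receptor for albumin and intrinsic factor complexes, had 2.04 FPKM in SS and 0.872 FPKM in SS.BN1, 2.34-fold (q = 0.00266, the authors' deposited table). Amn (amnionless), which anchors cubilin in the membrane, was not tested and had 1.51 FPKM in SS and 0.425 FPKM in SS.BN1. Lrp2 exceeded Cubn 3.85 times in SS and 3.25 times in SS.BN1.

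Dab2, a clathrin adaptor that binds the tail of megalin, stood at 26.9 FPKM in SS and 18.3 FPKM in SS.BN1 (1.47-fold, p = 0.016, q = 0.290, the authors' deposited table). Its ratio to Lrp2 was 3.43 in SS and 6.47 in SS.BN1. Folr1, the receptor that recovers filtered folate, was the most abundant gene of the list at 203 FPKM in SS and 262 FPKM in SS.BN1. Its log2 ratio of -0.37 was not called (p = 0.0763, q = 0.857, the authors' deposited table). Folr1 reached 7.91% of the Slc12a1 level in SS and 10.9% in SS.BN1, and it outweighed Lrp2 25.9-fold in SS and 92.5-fold in SS.BN1. Pdzk1, the scaffold that holds luminal transporters in place, had 9.67 FPKM in SS and 7.86 FPKM in SS.BN1 (q = 1.00, the authors' deposited table).

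Of the 22 tested genes, 4 share a locus entry with another tested row, namely Slc3a1, Slc26a1, Slc23a1 and Pdzk1 (neighbours Prepl, Idua, Paip2 and Gpr89b), and 0 of these 4 were called, 1 of them with an unadjusted p under 0.05 in the authors' deposited table. This grouping was made after the values were seen.

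Late genes had higher levels than early genes as a group, while the ratios of both overlapped. The 7 late genes (Slc5a1, Slc7a13, Slc22a7, Slc15a2, Slc6a18, Slc3a1 and Slc22a2) had a median of 16.8 FPKM in SS and 7.69 FPKM in SS.BN1. The 11 early genes (Slc5a2, Slc2a2, Slc34a1, Slc34a3, Slc6a19, Slc7a7, Slc7a8, Slc7a9, Slc4a4, Slc22a6 and Slc22a8) had a median of 0.942 FPKM in SS and 0.300 FPKM in SS.BN1. Summed, the late genes came to 200.3 FPKM in SS and 77.0 FPKM in SS.BN1, and the early genes to 22.2 FPKM in SS and 13.1 FPKM in SS.BN1. The authors tested 6 of the 7 late genes and called 3, Slc22a2, Slc7a13 and Slc6a18. They tested 4 of the 11 early genes and called 1, Slc34a1.

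In ratio, the tested late genes had a median log2 of 1.23 and the tested early genes 1.11, a difference of 0.12 for which no test was made. With every row counted, the medians were 1.36 for the late and 1.03 for the early genes. Both lists were wide, from 0.29 to 1.63 among late genes and from 0.00 to 2.26 among early genes. Both early extremes were untested genes of very low level, Slc34a3 (0.0622 FPKM in both strains) and Slc2a2 (0.437 FPKM in SS and 0.0912 FPKM in SS.BN1). Tested early genes ranged from 0.18 to 1.26. Within the late list, Slc5a1 was 1.28-fold and Slc15a2 1.22-fold apart, while Slc7a13 was 3.09-fold, Slc22a2 2.90-fold and Slc3a1 2.57-fold apart. With Slc1a1, Slc13a2, Slc23a1 and Slc6a20 counted as late too, the order of the medians turns round among tested genes, with 1.09 for late and 1.11 for early genes. It does not turn round with every row counted, with 1.10 for late and 1.03 for early genes. The 18 unplaced genes with a row had 6 calls among 12 tested and a median log2 ratio of 1.16.

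**Figure D2:**
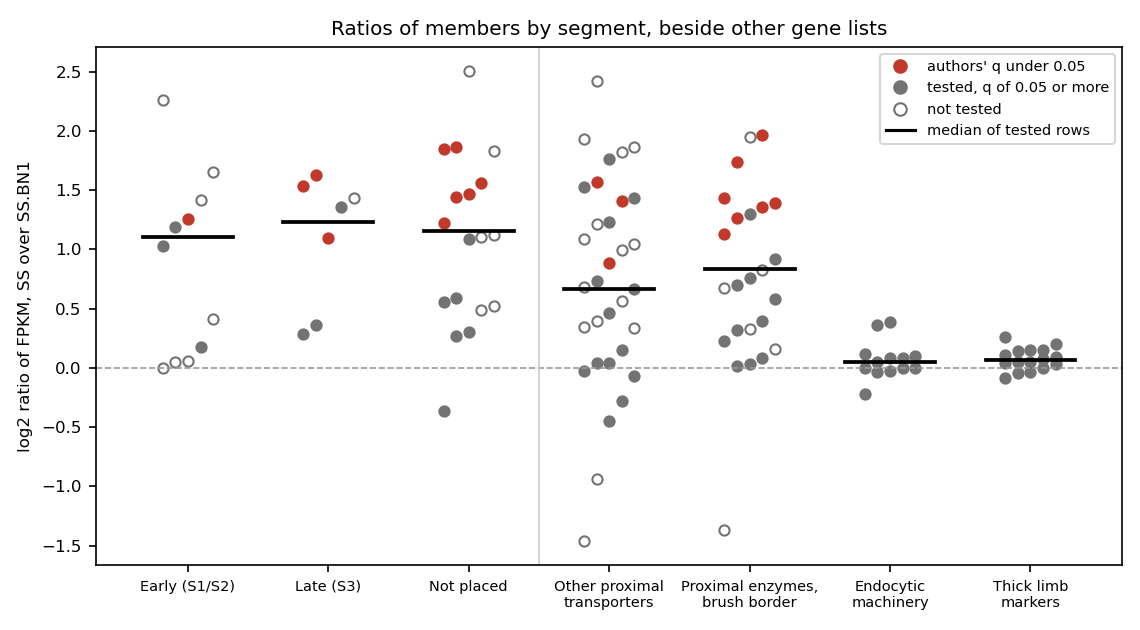
Log2 ratio of FPKM, SS over SS.BN1, for each gene with a value in both strains; bars are medians of tested rows. Early (median 1.11), late (1.23) and unplaced genes (1.16) overlap, while endocytic machinery (0.05) and thick limb markers (0.06) lie close to 0.

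Ratios vary more among rows of low level, so each gene was set beside rows of like level. The 13136 tested rows with a value in both strains and a mean of 0.80 to 400 FPKM were sorted into bands of mean FPKM, equally wide on a log scale, and 9 of the 22 genes lay above the 95th percentile of log2 ratio in their band. These were Slc22a2, Slc22a12, Slc7a13, Slc3a1, Slc6a18, Slc34a1, Slc27a2, Slc47a1 and Lrp2, of which Slc3a1 was not called. Slc7a13 had a log2 ratio of 1.63 where the 95th percentile of 560 rows was 0.71. Cubn and Slc17a3 were called but lay within the band, the 95th percentile for Cubn being 1.35. The band of Slc17a3 was the lowest in level. That band had a median log2 ratio of 1.10, against -0.03 in the next band, so it differed in more than spread. Folr1 alone lay below the 5th percentile, which was -0.10 among 184 rows. The other uncalled genes within their bands fell in 2 sets, with Slc22a6, Slc7a8 and Slc23a1 at log2 ratios of 1.03 to 1.19, and Slc7a7, Slc5a1, Slc26a1, Slc15a2, Pdzk1, Dab2 and Slc1a1 at 0.18 to 0.59.

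**Figure D3:**
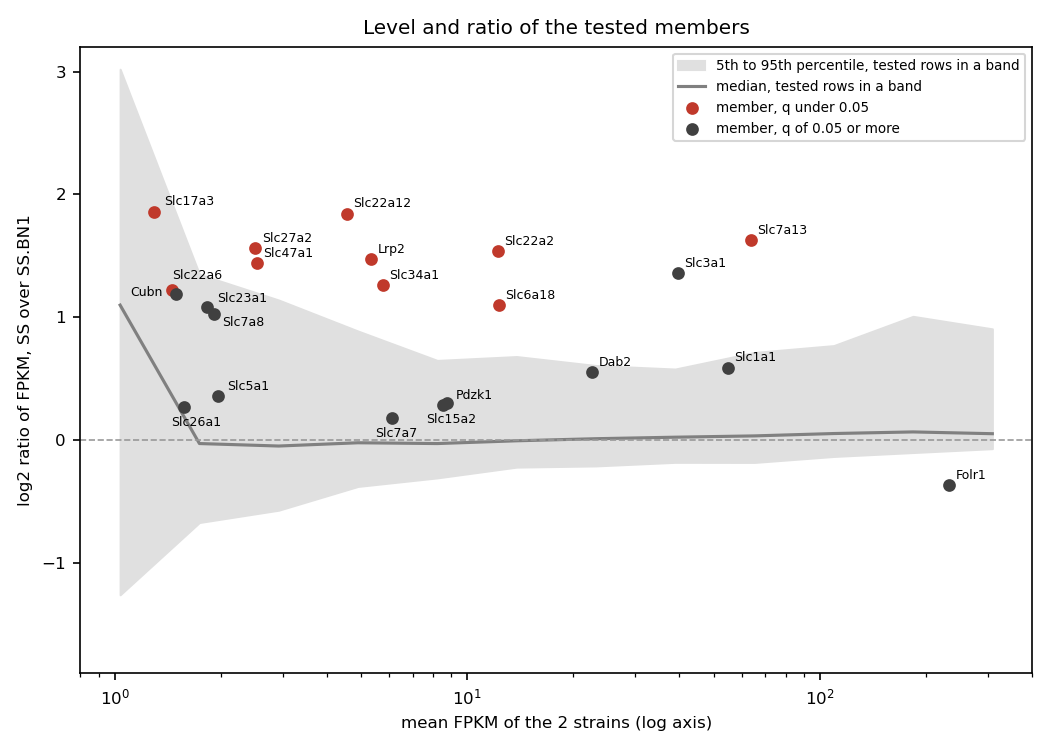
Log2 ratio, SS over SS.BN1, against mean FPKM (log axis) of the 22 tested genes, with the 5th to 95th percentile of the 13136 tested rows in a band shaded and joined between band centres. Slc7a13 (1.63), Slc22a2 (1.54) and Slc3a1 (1.36) lie above the shading, and Folr1 lies below it at -0.37.

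Chromosome 1, the chromosome that was exchanged, holds 11 of the 36 genes: Slc22a2, Slc22a6, Slc22a8, Slc22a12, Slc7a9, Slc6a18, Slc6a19, Slc5a2, Slc1a1, Abcc2 and Folr1. Of the 6 tested on it, 3 were called in the authors' deposited table: Slc22a2 (48317995 to 48360261), Slc22a12 (221910767 to 221919301) and Slc6a18 (32221636 to 32237387). Of the 16 tested on other chromosomes, 7 were called. The median log2 ratio was 1.14 on chromosome 1 and 1.16 elsewhere, so the higher SS values were found on both kinds of chromosome. Folr1 (166934460 to 166945904), the 1 gene of the list with the higher value in SS.BN1, lies on chromosome 1 as well. Coordinates are as deposited, with 1 added to each start, and their build is not settled.

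Single isoforms gave fewer calls. The 36 genes had 88 isoform rows, of which 39 were tested and 3 were called, beside 1.05% of all tested isoform rows in the authors' deposited table. The called isoforms belonged to Slc22a12, Slc7a13 and Lrp2. For Slc7a13 and Lrp2 the gene has a single isoform row, so this is the gene value again. The called isoform of Slc22a12 had 5.09 FPKM in SS and 1.53 FPKM in SS.BN1 (q = 0.0277, the authors' deposited table), and it made up 71.5% of the gene in SS and 77.0% in SS.BN1.

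Isoforms that the authors' assembly added without an annotated name were present in 9 genes and held most of the SS value in 5. In Pdzk1, the annotated isoforms came to 2.47 FPKM in SS and 0.0478 FPKM in SS.BN1, while the assembled ones came to 7.20 FPKM in SS and 7.81 FPKM in SS.BN1. The main annotated isoform was 51.7-fold higher in value in SS and was not called (p = 0.107, q = 0.999, the authors' deposited table), its SS.BN1 value being close to 0. In Slc6a18, annotated isoforms had 7.59 FPKM in SS and 1.65 FPKM in SS.BN1, and assembled ones had 9.17 FPKM in SS and 6.18 FPKM in SS.BN1. None of the 10 Slc6a18 isoforms was called, although the gene was. In Dab2, assembled isoforms took 95.3% of the gene in SS and 98.2% in SS.BN1, and its annotated isoform had 1.27 FPKM in SS and 0.338 FPKM in SS.BN1.

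Slc1a1 and Folr1 showed no such split. The annotated Slc1a1 isoform had 54.6 FPKM in SS and 37.7 FPKM in SS.BN1, and the assembled ones 11.3 FPKM in SS and 6.13 FPKM in SS.BN1. In Folr1, the main annotated isoform had 152 FPKM in SS and 200.6 FPKM in SS.BN1, and an assembled isoform followed with 36.7 FPKM in SS and 47.2 FPKM in SS.BN1. Both kinds of isoform were thus lower in SS in their sums, at log2 ratios of -0.40 and -0.26. The division of reads between isoforms is an estimate of the authors' program, and these genes were picked after their isoform values were seen.

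**Figure D4:**
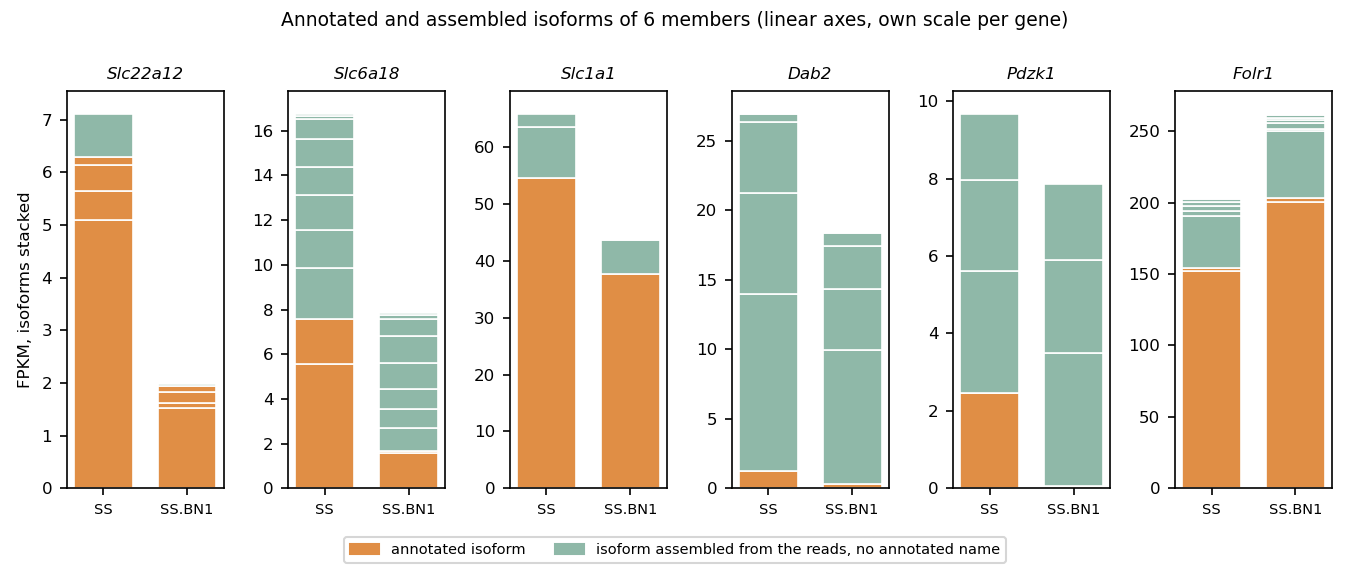
FPKM of the isoforms of 6 genes, stacked, SS beside SS.BN1, with annotated isoforms at the base and assembled isoforms above. In Pdzk1 and Slc6a18 the annotated part is larger in SS (2.47 and 7.59 FPKM) than in SS.BN1 (0.0478 and 1.65 FPKM), while the assembled part of Pdzk1 is 7.20 FPKM in SS and 7.81 FPKM in SS.BN1.

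Among other proximal genes, calls were also all higher in SS. Of 36 further proximal transporters, 32 had a row, 17 were tested and 3 were called in the authors' deposited table, all higher in SS, with a median log2 ratio of 0.66. The called genes were Slco1a6 (15.6 FPKM in SS and 5.87 FPKM in SS.BN1), Slco1a1 (5.70 FPKM in SS and 1.92 FPKM in SS.BN1) and Slc9a3r1 (37.3 FPKM in SS and 20.1 FPKM in SS.BN1), each with q = 0.00266 in the authors' deposited table. Slco1a1 and Slco1a6 are organic anion transporters with similar copies in the rat genome, so the split of reads between them is uncertain. Slc9a3r1 is a scaffold of luminal transporters. Of the 17 further transporters tested, 13 had the higher value in SS. Their most abundant row, which joins Slc6a12 with Slc6a13, went the opposite way, with 41.8 FPKM in SS and 57.2 FPKM in SS.BN1. It was not called (p = 0.0275, q = 0.427, the authors' deposited table). Of 18 tested proximal enzymes and brush border genes, 7 were called, all higher in SS, led in level by Kap (290.3 FPKM in SS and 120.5 FPKM in SS.BN1), and the median log2 ratio was 0.84. The general machinery of endocytosis, such as Rab7a (167 FPKM in SS and 153 FPKM in SS.BN1), had 0 calls among 13 tested genes, 0 with an unadjusted p under 0.05 in the authors' deposited table, and a median log2 ratio of 0.05.

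Cell types that the pick could also hold were followed by their markers. Their part, and that of proximal tubule cells, in the higher SS values was not tested. Thin limb genes had 2 calls among 7 tested and summed to 1014 FPKM in SS and 555 FPKM in SS.BN1, with a median log2 ratio of 0.36. The called ones were Cldn4, a tight junction protein (426 FPKM in SS and 80.6 FPKM in SS.BN1, q = 0.00266, the authors' deposited table), and Aqp1, a water channel that proximal tubules carry as well (138 FPKM in SS and 74.1 FPKM in SS.BN1, q = 0.029, the authors' deposited table). Principal cell genes had 1 call among 7, Aqp2, with 48.1 FPKM in SS and 78.3 FPKM in SS.BN1 (q = 0.0318, the authors' deposited table). Fxyd4, the most abundant of them, had 85.0 FPKM in SS and 90.8 FPKM in SS.BN1, and the list summed to 238 FPKM in SS and 298 FPKM in SS.BN1, with a median log2 ratio of -0.27. Intercalated cell genes had 0 calls among 6 and 1 unadjusted p under 0.05 in the authors' deposited table, with a sum of 139 FPKM in SS and 172 FPKM in SS.BN1 and Slc4a1 at 55.8 FPKM in SS and 69.7 FPKM in SS.BN1. Their median log2 ratio was -0.28. Of the distal convoluted tubule genes 1 was tested, Slc12a3, with 3.77 FPKM in SS and 4.22 FPKM in SS.BN1 and no call.

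Endothelial genes summed to 97.0 FPKM in SS and 136 FPKM in SS.BN1, with Plvap at 31.96 FPKM in SS and 51.8 FPKM in SS.BN1 and a median log2 ratio of -0.20. Their 1 call among 8 was Tek, with 6.78 FPKM in SS and 11.6 FPKM in SS.BN1 (q = 0.0221, the authors' deposited table). Plvap, Tek and Emcn (24.4 FPKM in SS and 36.9 FPKM in SS.BN1) made up most of the difference between the sums. Cdh5 (6.56 FPKM in SS and 6.22 FPKM in SS.BN1) and Flt1 (8.36 FPKM in SS and 7.88 FPKM in SS.BN1) had the higher value in SS. Kdr, Ehd3 and Egfl7 were lower in value in SS, by 1.15-fold at most. Immune genes summed to 405 FPKM in SS and 401 FPKM in SS.BN1, most of it Cd74 (358 FPKM in SS and 349 FPKM in SS.BN1). Their 1 call among 7 was Cd14, with 7.46 FPKM in SS and 2.63 FPKM in SS.BN1 (q = 0.0221, the authors' deposited table). The other immune genes mostly had the lower value in SS, and the list's median log2 ratio was -0.27. Csf1r, a macrophage receptor, had 7.89 FPKM in SS and 13.5 FPKM in SS.BN1, without a call (p = 0.00475, q = 0.113, the authors' deposited table). Ptprc, C1qa, C1qb and the untested Cd3e were also lower in value in SS, and Cd68 was higher in value. Among podocyte genes, Podxl had 11.4 FPKM in SS and 19.0 FPKM in SS.BN1 (q = 0.0278, the authors' deposited table). Fibroblast and smooth muscle genes had 0 calls among 5 and 2 unadjusted p under 0.05 in the authors' deposited table, with a sum of 53.5 FPKM in SS and 40.6 FPKM in SS.BN1. Their most abundant row joins Tagln with Sidt2, at 39.4 FPKM in SS and 26.7 FPKM in SS.BN1, and makes up most of the difference between the sums. Col1a1, the other gene with an unadjusted p under 0.05, went the opposite way in value, with 1.69 FPKM in SS and 2.92 FPKM in SS.BN1 (p = 0.0152, q = 0.278, the authors' deposited table). Pdgfrb had 1.49 FPKM in SS and 1.76 FPKM in SS.BN1, and the median log2 ratio of the 5 tested genes was 0.05. Aqp1, Aqp2, Tek, Cd14, Csf1r, Ptprc, C1qa, C1qb, Cd3e, Cd68, Col1a1 and Pdgfrb were named after their values were seen. So were Emcn, Cdh5, Flt1, Kdr, Ehd3, Egfl7 and the row of Slc6a12 and Slc6a13.

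The 36 proximal genes summed to 564 FPKM in SS and 436 FPKM in SS.BN1, a ratio of 1.29 that Folr1 lowers: without it, the sums were 361 FPKM in SS and 174 FPKM in SS.BN1, a ratio of 2.075. The thick limb markers summed to 28718 FPKM in SS and 26792 FPKM in SS.BN1, a ratio of 1.07.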

How the data were processed

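RNA was measured in 12 libraries, 6 per strain, made with a stranded total RNA kit and sequenced in pairs, per the labels' protocols. Cufflinks 2.2.1, TopHat2 2.1.1, StringTie, FastQC and cutadapt are named, without their roles, in the submitters' processing notes. Those notes also name the build rn5, although 6832 rows carry AABR07 contig names of a later assembly. The authors deposited 1 FPKM value per strain for each gene and isoform, with their p-values and q-values; how 6 libraries became 1 value is not stated in those sources. Read counts and the percent of reads mapped come from the deposited table of libraries, per the file headers.

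Genes were matched by name to single rows of the gene table. Log2 ratios, SS over SS.BN1, were computed from FPKM without a pseudocount, and calls are the authors' q under 0.05 among 13253 tested genes. Deposited values of 1 for untested rows were not used. Library measures were compared by an exact permutation test over 924 assignments, whose smallest p is 0.00216. Isoform rows were joined to genes by the authors' gene identifier. Genes were placed as early or late from general knowledge of the tubule. Members and lists were chosen with earlier results of these data known. Every gene with a row is named, and beyond them Slc12a1, Umod, the called further transporters and the most abundant gene of each other list; genes singled out for isoforms were chosen after their values were seen. Scripts were tested on simulated data and ran in Python 3.11.15 with NumPy 2.4.6, pandas 2.3.3 and matplotlib 3.10.9.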

Additional observations from a re-analysis of the deposited data

How the results depend on the processing

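The count of 10 called genes became 6 at q under 0.01. It was 5 among genes with a mean of at least 5 FPKM and 3 in the isoform table. It stayed at 10 with a fold of at least 1.5, a mean of at least 1 FPKM or without rows that join several names. Leaving out genes that share a locus entry, added after the data were seen, also kept it at 10. Those settings had no call to remove, so they do not test the count. The smallest called fold of all rows was 1.58, and the lowest mean of a called gene of the list was 1.29 FPKM (Slc17a3). No called gene of the list was in a row that joins several names, and 0 shared a locus entry. The median log2 ratio of 1.14 was 0.69 with a pseudocount of 1 FPKM and 1.10 with 0.1, 1.10 at a mean of at least 1 FPKM, 0.89 after quantile normalization (which puts the median of all tested rows at -0.07), 1.08 relative to thick limb markers and 0.99 as a mean; with every row counted it was 1.12 and without Folr1 1.19, both added later. The late minus early difference of 0.12 was 0.49 and 0.18 with pseudocounts of 1 and 0.1, 0.29 after quantile normalization, 0.13 as a difference of means, 0.34 with every row counted and -0.016 with the wider late list. The difference between genes on and off chromosome 1, -0.011, was 0.16 and 0.017 with those pseudocounts, 0.058 at a mean of at least 1 FPKM, 0.059 after quantile normalization and 0.083 with every row counted. The ratio of summed FPKM, 1.29, was 2.075 without Folr1 and 1.26 without Slc1a1, Slc4a4 and Dab2. Reads per library differed by 0.77 M in means and by -0.73 M in medians (SS minus SS.BN1; exact permutation p = 0.784 and 0.727). The causes of these shifts were not tested. All 154 ratios of single tested genes under other settings had the sign of the main ratio, but most of these settings could not turn it. An equal pseudocount or a level filter cannot change a sign, and summed isoforms give the gene value again. Median centring moves ratios by 0.001 and the thick limb markers by 0.06, less than the smallest ratio, 0.18 for Slc7a7. Only quantile normalization was free to turn a sign. No paired analysis was possible, because the labels name nothing that pairs animals of the 2 strains and expression has 1 value per strain. With 1 value per strain, no library could be left out, and the depth behind each FPKM is unknown.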
